A study of Rattus norvegicus with 8 samples.

Results

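Among the genes that rat liver expresses, 8 were singled out because 1 of 4 treatment groups stood far from the other 3 on the arrays: Fam111a, Zfp354a, Dipk1c, Gemin6, Dnpep, Mlc1, Pbsn and Tspyl4. They are 8 of the 14217 genes that probe sets of the array name by a single symbol, and 8 of the 9829 genes named by a probe set that passed the filter on low signals. Each of the 8 is read by 1 probe set, and all 8 probe sets passed the filter, Fam111a and Dipk1c only through the Dex arrays in which they are high. They were selected on the measured signals of all 4 groups, the same values as given here, so their levels are described and not tested.

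Livers of male Sprague-Dawley rats weighing 180 to 200 g were profiled on 8 Affymetrix arrays, 2 in each group, with the arrays of a group lettered a and b. In the Dex group the animals took vehicle by gavage for 3 days and had dexamethasone, 1.5 mg/kg, injected into muscle on the third day. In the GW3965 group they took GW3965, 50 mg/kg, by gavage for 3 days and had saline injected on the third day. The Dex+GW3965 group had both compounds at these doses and the vehicle group had neither, and the livers were taken 24 h after the injection. The labels number the liver of each group once, as 1, 4, 6 and 8, and add an a or b for the array, whereas by the methods each group held a pair of animals. The spread between arrays a and b may therefore be that of 1 liver measured again, and the treatment cannot be told apart from the animals that stand for it. Whole liver was measured, so fewer cells of a type and less RNA per cell cannot be told apart either.

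Dexamethasone is a synthetic glucocorticoid that binds the glucocorticoid receptor, a nuclear receptor that acts on genes of gluconeogenesis and amino acid breakdown in hepatocytes. GW3965 is an agonist of the liver X receptors, nuclear receptors that sense oxysterols and act on genes of cholesterol efflux and fatty acid synthesis. None of the 8 genes is a classical target of either receptor, and their products belong to unrelated pathways. Fam111a encodes a serine protease that works with PCNA at replication forks, Zfp354a a KRAB zinc finger protein, Dipk1c a kinase-like protein of the secretory pathway and Gemin6 a subunit of the complex that loads Sm proteins on spliceosomal RNAs. Dnpep encodes a cytosolic aspartyl aminopeptidase, Mlc1 a membrane protein best known in astrocytes, Pbsn probasin, a lipocalin best known in the prostate, and Tspyl4 a member of the nucleosome assembly protein family.

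All 8 hepatocyte markers measured lay above the median of the arrays, and their summed signal ran from 16.87 to 17.02 on the log2 scale over the 8 arrays. Array medians lay between 5.48 and 5.52, and their mean, 5.49, serves as a floor under which a group mean is not taken as above background. Of 16253 probe sets kept by the filter, arrays a and b of a group differed by 1 or more on the log2 scale in 2, and the median difference ranged from 0.0698 to 0.089 over the groups. A group was called apart where its mean lay at least 1 from the nearest other group mean, the other 3 means spanned less than that distance and no arrays overlapped. By this measure the vehicle group stood apart in 31 probe sets (0.191%), Dex in 61 (0.375%), GW3965 in 26 (0.16%) and Dex+GW3965 in 30 (0.185%). The 148 probe sets had a median largest difference between arrays a and b of 0.228, against 0.17 over all probe sets that passed the filter, and in 1 of the 148 that difference reached 1. Of the 8 genes, 6 met the measure. Pbsn did not, because the other 3 group means spanned more than its distance, and Tspyl4 did not, because its distance was below 1.

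Both compounds act through receptors that bind DNA, so the promoters of a pair of genes that were high with Dex, Fam111a and Zfp354a, and of a pair that were low with GW3965, Pbsn and Dnpep, are printed here. Each runs from 250 bases before to 50 bases after the start of the gene as RefSeq places it on GRCr8, read 5′ to 3′ on the strand of the gene. They lie at chr1:219065389-219065688, plus strand (Fam111a), chr10:35897013-35897312, plus strand (Zfp354a), chrX:45807934-45808233, minus strand (Pbsn) and chr9:84257402-84257701, minus strand (Dnpep). Capitals mark the glucocorticoid receptor half-site AGAACA and the liver X receptor half-site AGGTCA, searched on both strands.
Fam111a: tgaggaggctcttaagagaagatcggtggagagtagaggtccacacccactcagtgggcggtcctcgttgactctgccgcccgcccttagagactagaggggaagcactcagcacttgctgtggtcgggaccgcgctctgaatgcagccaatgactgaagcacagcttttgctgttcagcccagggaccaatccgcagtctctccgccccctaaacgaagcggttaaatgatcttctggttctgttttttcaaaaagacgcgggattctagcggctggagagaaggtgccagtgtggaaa
Zfp354a: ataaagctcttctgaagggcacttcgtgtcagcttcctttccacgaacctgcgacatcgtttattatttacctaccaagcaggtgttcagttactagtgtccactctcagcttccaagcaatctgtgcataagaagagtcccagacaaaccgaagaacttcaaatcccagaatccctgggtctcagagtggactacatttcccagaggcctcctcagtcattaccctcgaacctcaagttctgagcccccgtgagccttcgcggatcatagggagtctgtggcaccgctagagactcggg
Pbsn: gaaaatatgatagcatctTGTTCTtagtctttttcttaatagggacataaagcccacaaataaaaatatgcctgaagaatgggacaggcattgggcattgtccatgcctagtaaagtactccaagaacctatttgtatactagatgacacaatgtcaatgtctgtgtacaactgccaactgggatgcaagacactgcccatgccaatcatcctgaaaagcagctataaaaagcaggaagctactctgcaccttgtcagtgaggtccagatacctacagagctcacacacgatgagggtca
Dnpep: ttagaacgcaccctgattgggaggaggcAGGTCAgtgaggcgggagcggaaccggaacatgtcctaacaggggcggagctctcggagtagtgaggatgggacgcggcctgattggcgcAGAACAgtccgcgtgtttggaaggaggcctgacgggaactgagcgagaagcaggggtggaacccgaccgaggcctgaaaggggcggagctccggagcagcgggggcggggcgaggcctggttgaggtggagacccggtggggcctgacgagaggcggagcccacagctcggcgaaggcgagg

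RefSeq gave a promoter for 8 of the 8 genes. The glucocorticoid receptor half-site was found in 3 of them, in Pbsn at -232, in Dnpep at -132 and in Tspyl4 at -147 and 17 from the start. None of the 4 genes in which the Dex group stood apart held it in this window. The liver X receptor half-site was found in 2, in Dnpep at -222 and in Dipk1c at -218. Over all 33469 promoters of the same length, 20.7% hold the first half-site and 16.2% the other. The paired forms, AGAACA and TGTTCT with 3 bases between them and AGGTCA repeated after 4 bases, were in none of the 8 and in 5 and 2 of all promoters. A match in these letters is a description and not a binding site, and no match says only that the letters are not in this window.

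**Figure D1:**
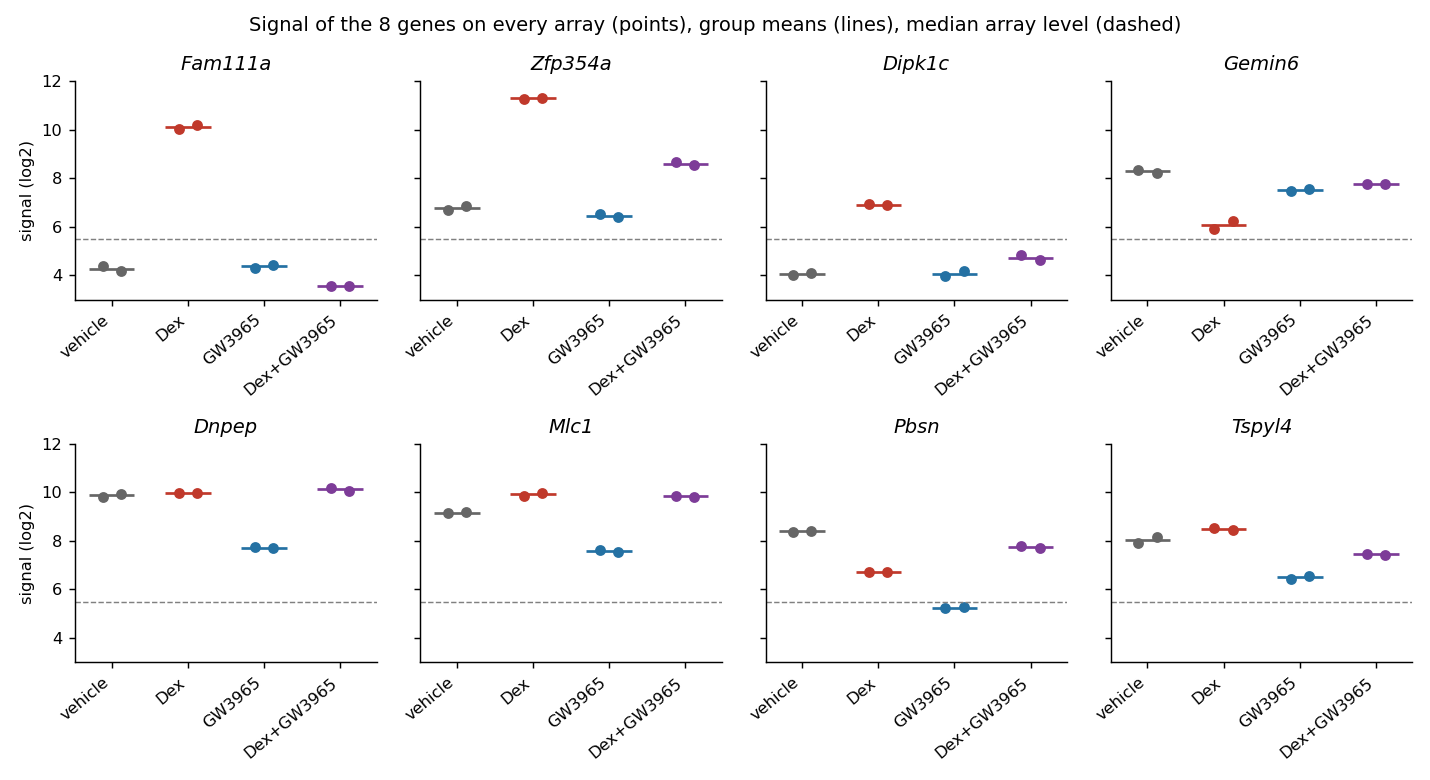
Signal of the 8 genes on the log2 scale (vertical axes), with 1 panel for each gene and 1 column for each treatment group. Points are arrays a and b, lines are group means and the dashed line is the floor of 5.49. The Dex points lie alone at the top for Fam111a, Zfp354a and Dipk1c and alone at the bottom for Gemin6, and the GW3965 points lie lowest for Dnpep, Mlc1, Pbsn and Tspyl4.

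The Dex group stood above all others for 3 of the genes. Fam111a, the protease of the replication fork, read 4.38 and 4.18 on the vehicle arrays, 10.01 and 10.18 on the Dex arrays, 4.29 and 4.44 on the GW3965 arrays and 3.54 and 3.54 on the Dex+GW3965 arrays. Only the Dex arrays lay above the floor, and the 3 other group means lay below it within 0.83 of each other. The Dex mean, 10.09 ± 0.13 (SD, n = 2 arrays), lay 5.73 above the nearest other mean, that of GW3965. With that mean set to the floor, the Dex signal was at least 24.3-fold higher. The distance of 5.73, for which the gene was picked, was the largest among the 4411 kept probe sets in which Dex was the highest group. It was 29.9 times the largest difference between arrays a and b of Fam111a, that of vehicle (0.19). Since the GW3965 mean and the vehicle arrays lay under the floor, this ratio has no firm size. The Dex+GW3965 group had received the same dexamethasone dose as the Dex group, and its mean lay 6.56 below that of Dex.

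Zfp354a, a zinc finger protein of the KRAB class, whose members repress transcription through Trim28, read 6.69 and 6.87 with vehicle, 11.28 and 11.30 with Dex, 6.52 and 6.40 with GW3965 and 8.65 and 8.55 with Dex+GW3965. All arrays lay above the floor, and the groups formed 3 levels, with vehicle and GW3965 lowest and Dex+GW3965 between them and Dex. The arrays of no pair of groups overlapped. The Dex mean, 11.29, lay 2.69 above the Dex+GW3965 mean (6.46-fold) and 4.51 above the vehicle mean, and the other 3 means spanned 2.14. Dex+GW3965 exceeded vehicle by 1.82, so this gene was also higher in the other group that had dexamethasone.

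Dipk1c, a member of a family of kinase-like proteins of the endoplasmic reticulum, read 4.02 and 4.10 with vehicle, 6.95 and 6.88 with Dex, 3.97 and 4.16 with GW3965 and 4.83 and 4.61 with Dex+GW3965. The Dex arrays alone lay above the floor. Vehicle and GW3965 overlapped, and the Dex+GW3965 arrays lay between them and Dex but below the floor. The Dex mean, 6.91 ± 0.05 (SD, n = 2), lay 2.19 above the Dex+GW3965 mean, and with that mean set to the floor the Dex signal was at least 2.68-fold higher. Dex was highest as for Zfp354a, but the order of the other 3 groups of Dipk1c, all under the floor, cannot be set beside that of Zfp354a. The signals of both genes correlated across the 8 arrays with r = 0.975, a description over arrays that share the group they were picked for.

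Gemin6 was the gene in which Dex stood below the rest. It read 8.33 and 8.22 with vehicle, 5.91 and 6.23 with Dex, 7.47 and 7.54 with GW3965 and 7.74 and 7.77 with Dex+GW3965. All arrays lay above the floor, vehicle was highest and the groups did not overlap, with GW3965 and Dex+GW3965 close to each other. The Dex mean, 6.07 ± 0.23 (SD, n = 2), lay 1.43 below the GW3965 mean (2.7-fold lower), and Dex minus vehicle was -2.21. The difference of 0.33 between the Dex arrays was the largest within a group among the 8 genes, and the distance between groups was 4.38 times that.

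GW3965 was lowest for the other 4 genes, and probe sets of this pattern were few: of the 26 in which GW3965 stood apart, 22 lay above and 4 below, and 3 genes were named by those 4. They were Dnpep, Mlc1 and Lpl, the last of which encodes lipoprotein lipase and was named after its values were seen, with a distance of 1.02. Dnpep, which cleaves acidic residues from the amino end of peptides, read 9.82 and 9.95 with vehicle, 9.96 and 9.99 with Dex, 7.74 and 7.71 with GW3965 and 10.17 and 10.07 with Dex+GW3965. The 3 other group means lay within 0.23 of each other, and the vehicle arrays reached 9.95 where the Dex arrays began at 9.96. The GW3965 mean, 7.72 ± 0.02 (SD, n = 2), lay 2.16 below the nearest mean, that of vehicle (4.48-fold lower). This distance was the largest among the 4291 kept probe sets in which GW3965 was the lowest group.

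Mlc1, mutated in a leukodystrophy with brain swelling, read 9.15 and 9.17 with vehicle, 9.86 and 9.99 with Dex, 7.63 and 7.56 with GW3965 and 9.85 and 9.82 with Dex+GW3965. Both groups with dexamethasone lay at one level, above vehicle, and GW3965 lay alone far below. The GW3965 mean, 7.59 ± 0.05 (SD, n = 2), lay 1.56 below the vehicle mean (2.96-fold lower), and the other means spanned 0.77. Of 6 measured brain markers, Gfap, S100b, Aqp4 and Snap25 had means below the floor in all 4 groups, while Slc1a2, a glutamate transporter of astrocytes (group means 6.40 to 6.90), and Mbp (6.91 to 8.30) lay above it, as Mlc1 did on every array. Their summed signal was 8.11 to 8.28 with vehicle, 8.83 to 8.84 with Dex, 8.48 to 8.60 with GW3965 and 8.96 to 8.99 with Dex+GW3965, lowest with vehicle. The groups had the same order for Mbp, whereas Slc1a2 was lowest with Dex (6.40) and read 6.71 with vehicle. Dnpep and Mlc1 correlated across the 8 arrays with r = 0.962, again a description over arrays that share the group they were picked for.

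Pbsn, whose promoter is known for its androgen response elements, read 8.38 and 8.39 with vehicle, 6.72 and 6.70 with Dex, 5.22 and 5.27 with GW3965 and 7.80 and 7.72 with Dex+GW3965. The 4 groups lay at 4 separate levels, with GW3965 just below the floor, and the level was lower with each compound alone than with both. The GW3965 mean, 5.25 ± 0.04 (SD, n = 2), lay 1.46 below the Dex mean. With GW3965 set to the floor, the Dex signal was at least 2.32-fold higher. The other 3 means spanned 1.68, since Dex itself lay that far below vehicle, farther than GW3965 lay below Dex. Of 6 measured markers of prostate and seminal vesicle none passed the filter, and their summed signal lay between 6.54 and 6.99 on all arrays without following the order of Pbsn.

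Tspyl4, related to a testis-specific protein of the Y chromosome, had the smallest distance. It read 7.93 and 8.14 with vehicle, 8.51 and 8.46 with Dex, 6.45 and 6.56 with GW3965 and 7.47 and 7.41 with Dex+GW3965. Groups did not overlap, and both groups that had GW3965 lay below both that had not. The GW3965 mean, 6.51 ± 0.08 (SD, n = 2), lay 0.93 below the Dex+GW3965 mean (1.91-fold lower), and the other 3 means spanned 1.04. Its distance ranked 17 among the 4291 probe sets with GW3965 lowest, while those of Mlc1 and Pbsn ranked 4 and 5.

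**Figure D2:**
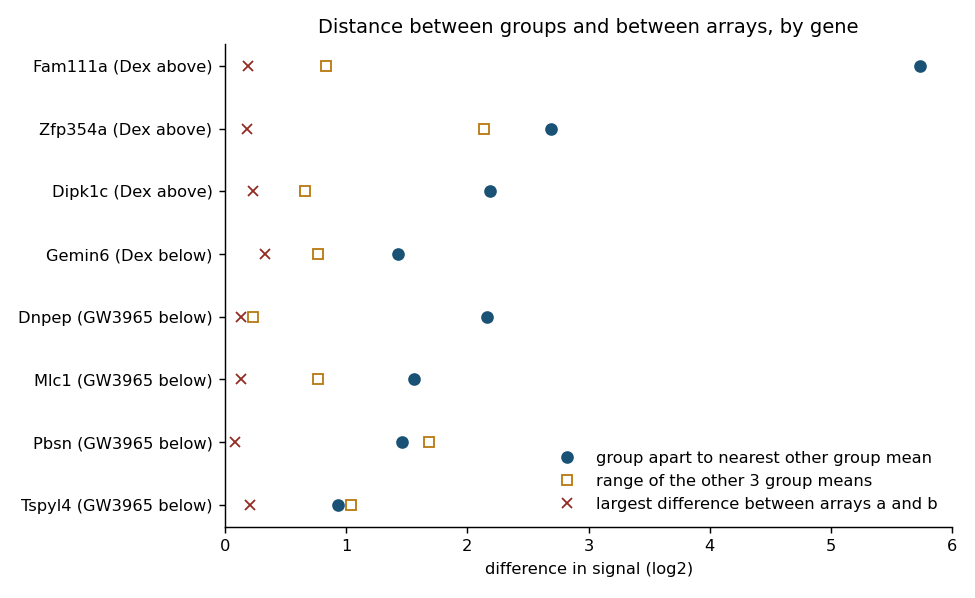
For each gene, the distance of the group apart from the nearest other group mean (filled circles), the range of the other 3 group means (open squares) and the largest difference between arrays a and b of any group (crosses), all on the log2 scale of the horizontal axis. Circles lie right of the crosses for all 8 genes, and left of the squares for Pbsn and Tspyl4.

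The difference with GW3965 was also read on each background, without dexamethasone (GW3965 minus vehicle) and with it (Dex+GW3965 minus Dex). For Pbsn the difference was -3.14 without and 1.05 with dexamethasone, for Dnpep -2.16 and 0.15 and for Gemin6 -0.77 and 1.68. In these 3 genes the arrays of the 2 groups compared did not overlap on either background, and the direction turned. For Dnpep the difference with dexamethasone, 0.15, was close to its largest difference between arrays a and b, 0.13. Mlc1 differed by -1.56 without and -0.09 with dexamethasone. Tspyl4 kept its direction, with -1.53 and -1.04. For the genes that were high with Dex the difference lay on the dexamethasone background: 0.09 and -6.56 for Fam111a, 0.00 and -2.19 for Dipk1c and -0.32 and -2.69 for Zfp354a. For Fam111a and Dipk1c the groups without dexamethasone and the Dex+GW3965 group were below the floor, and for Pbsn the GW3965 group was, so these differences have no firm size. With means under the floor set to it, they were -2.90 and 1.05 for Pbsn, 0.00 and -4.60 for Fam111a and 0.00 and -1.42 for Dipk1c.

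**Figure D3:**
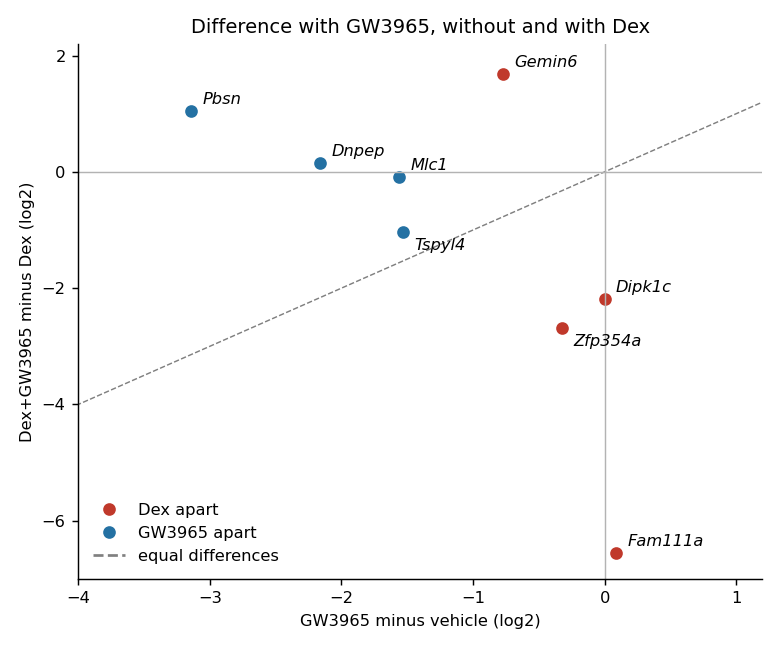
Difference between GW3965 and vehicle (horizontal axis) against that between Dex+GW3965 and Dex (vertical axis), both on the log2 scale, with 1 point for each gene. Points on the dashed line would have equal differences on both backgrounds. Tspyl4 lies nearest to it and Fam111a, at -6.56 on the vertical axis, farthest from it.

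Genes beside the 8 on their chromosomes had no part in the choice and were tested. The 8 genes lie on 8 different chromosomes. Of the 80 genes within 5 places on either side in the RefSeq order on GRCr8, 25 had a probe set that passed the filter. The group apart was compared with the mean of the other 3 groups by limma over all probe sets, and higher or lower means higher or lower than that mean, not than vehicle alone. Of all probe sets, 16.9% were higher and 21.5% lower with Dex at an adjusted p under 0.05, and 14.3% were higher and 18.9% lower with GW3965. Of the 25 neighbours 6 were called in the direction of the gene beside them, 6 in the other direction and 13 did not pass the test, which makes 48% called. Their differences ran from -1.32 to 0.36.

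The neighbour that differed most was Obp1f, next to Pbsn, which encodes an odorant-binding lipocalin. Its means were 5.45 with vehicle, 6.97 with Dex, 5.12 with GW3965 and 6.89 with Dex+GW3965, and it was lower with GW3965 by the fit (difference -1.32, SE 0.10, adjusted p = 5.3e-09). Both groups without dexamethasone lay below the floor for Obp1f, whereas Pbsn was highest with vehicle, so that the order of groups was not that of Pbsn. Tbl1x, a corepressor subunit 4 places away, was higher with GW3965 (0.23, adjusted p = 0.0024), and the kinase gene Prkx was not called (-0.11, adjusted p = 0.24).

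Tspyl1, next to Tspyl4 and of the same family, was lower with GW3965 (difference -0.29, SE 0.05, adjusted p = 8.2e-05). Its GW3965 mean was 8.69 against 8.95 to 9.01 in the other groups. The other neighbours of Tspyl4, Nt5dc1 (-0.05, adjusted p = 0.7) and the kinase gene Frk (-0.12, adjusted p = 0.28), were not called. Near Dnpep, Gmppa, of GDP-mannose metabolism, was lower with GW3965 (-0.25, adjusted p = 0.00012) and Ptprn was higher (0.19, adjusted p = 0.025). The GW3965 mean of Gmppa, 9.48, lay close to the vehicle mean, 9.55, and the Dex (9.78) and Dex+GW3965 (9.88) means lay above both. Dnajb2, Des and Speg near Dnpep had differences from -0.08 to -0.01 and were not called. Near Mlc1, Creld2 was called higher (0.13, adjusted p = 0.011), but its GW3965 mean, 10.09, lay below the vehicle mean, 10.22, and only the Dex+GW3965 mean, 9.62, was far from the rest. There, Pim3 (-0.06) and Trabd (-0.05) were not called. The call of Ptprn was lost without Dex a, GW3965 a or GW3965 b (0.15 to 0.23, adjusted p from 0.056 to 0.27), and that of Creld2 without GW3965 a (0.09, adjusted p = 0.22).

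Beside the genes in which Dex stood apart, 3 of the 5 measured neighbours of Dipk1c were higher with Dex, as were 16.9% of all probe sets. They were Timm21, of mitochondrial import (0.36, adjusted p = 0.00027), Ptgr3, a prostaglandin reductase (0.34, adjusted p = 1.9e-05), and the dipeptidase gene Cndp2 (0.20, adjusted p = 0.00027). Timm21 read 7.06 with vehicle, 7.52 with Dex and 7.42 with Dex+GW3965, and Ptgr3 read 8.52, 8.92 and 8.73. Both were thus above vehicle in each group with dexamethasone, whereas Cndp2 read 9.94, 10.09 and 9.86. Cyb5a, cytochrome b5, was lower by the same fit (-0.09, adjusted p = 0.0081) and Zfp407 was not called (-0.07). Near Fam111a, Glyat was called lower (-0.12, adjusted p = 0.032), with means of 8.92, 8.89, 8.87 and 9.23 in the order vehicle, Dex, GW3965 and Dex+GW3965, and Mpeg1 (0.07) and Dtx4 (-0.19) were not called. Near Gemin6, Galm was higher (0.11, adjusted p = 0.046), and Srsf7 (0.10) and Dhx57 (0.00) were not called. The call of Glyat was lost without any 1 of 6 arrays (adjusted p from 0.051 to 0.26), that of Galm without any 1 of 7 (adjusted p from 0.057 to 0.21) and that of Cyb5a without Dex b (-0.08, adjusted p = 0.12). None of the 10 neighbours of Zfp354a had a probe set that passed the filter.

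**Figure D4:**
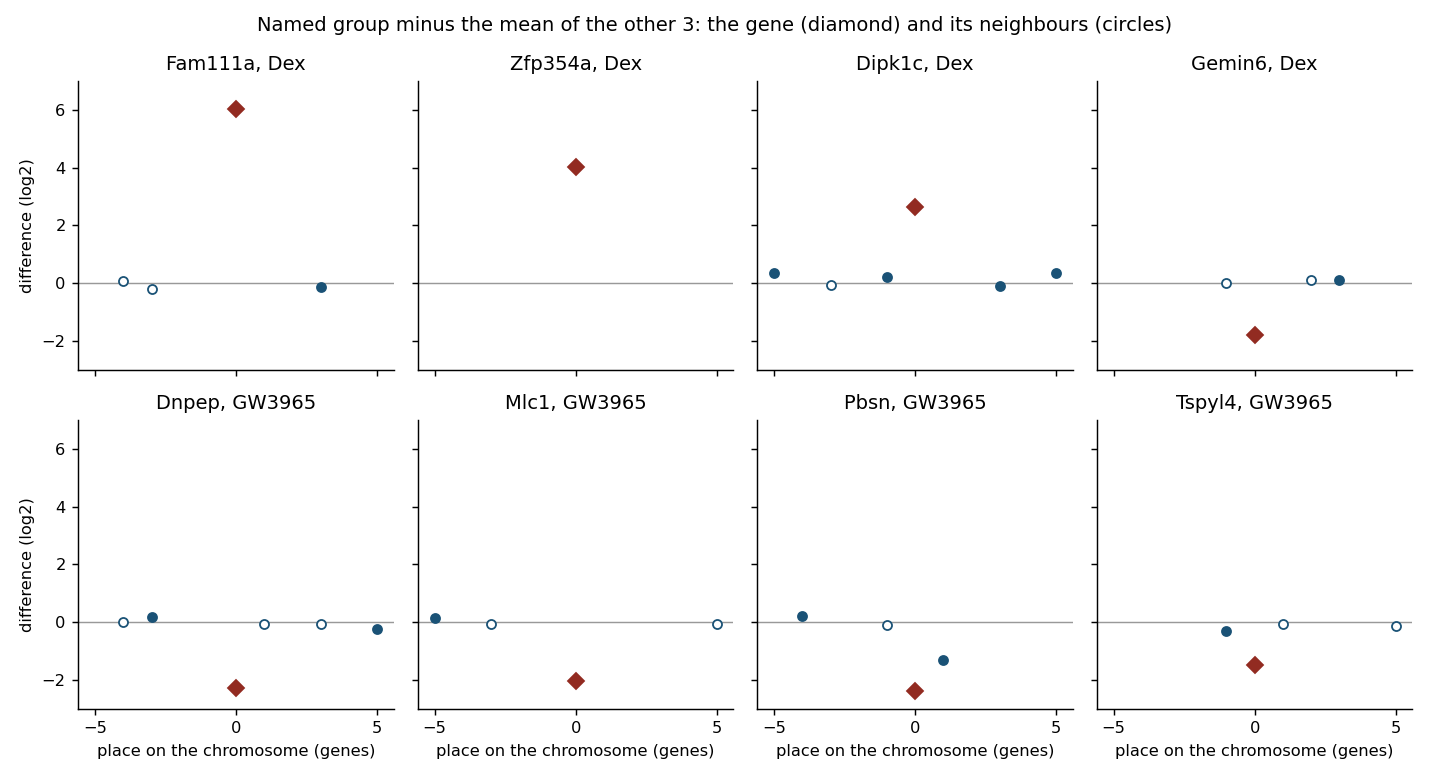
Difference between the group named in each title and the mean of the other 3 groups on the log2 scale (vertical axes), against the place in the order of genes on the chromosome (horizontal axes, with the gene itself at 0). Diamonds are the 8 genes and circles their neighbours with bars for the SE, filled where the neighbour was called. All circles lie between -1.32 and 0.36, and the lowest is Obp1f beside Pbsn.

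Partners and relatives of the 8 genes, from lists drawn up by function, were read in the contrast of the gene concerned. In these contrasts the median difference over all probe sets was 0.00 with Dex and 0.00 with GW3965. As above, a gene is higher or lower against the mean of the other 3 groups. Of 18 genes of the replication fork with a probe set that passed the filter, listed for Fam111a, 2 were higher with Dex, 4 lower and 12 did not pass the test (median difference -0.08). The share called, 33.3%, lay below the 38.4% of all probe sets called with Dex. The helicase subunits Mcm6 (difference -0.71, SE 0.12, adjusted p = 7.2e-05) and Mcm4 (-0.35, SE 0.11, adjusted p = 0.016) were lower with Dex. Their means were 4.77 and 5.16 with Dex and about as low, 4.87 and 5.16, with Dex+GW3965. The flap endonuclease gene Fen1 was among the genes called higher. Its means were 5.27 with vehicle, 5.85 with Dex, 5.17 with GW3965 and 5.33 with Dex+GW3965. Fen1 passed the filter only through the Dex arrays, so its call is no support for a difference. For Mcm6, Mcm4 and Fen1 at least 2 group means lay below the floor, and the call of Mcm4 was lost without Dex array b (-0.17, adjusted p = 0.38). None of the 18 stood apart as Fam111a did.

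Of 17 genes of the survival of motor neuron complex and the Sm core, 2 were higher with Dex, 6 lower and 9 were not called (median difference -0.07), which makes 47.1% called against 38.4% of all probe sets. All 6 that were lower also lay below vehicle. Gemin8, which binds the dimer of Gemin6 and Gemin7 in that complex, was lower with Dex (-0.56, SE 0.09, adjusted p = 6.7e-05), with means of 6.93 for vehicle, 6.26 for Dex, 6.86 for GW3965 and 6.65 for Dex+GW3965. Snrpf, of the Sm ring, was lower as well (-0.27, SE 0.05, adjusted p = 0.00016) and Gemin4 was higher (0.28, SE 0.10, adjusted p = 0.026), a call lost without Dex array a, Dex array b or GW3965 array a (0.22 to 0.34, adjusted p from 0.054 to 0.24). Dex was the lowest group for Gemin8 as for Gemin6, at a smaller distance. Snrpf lay at 8.07 with Dex and at 8.08 with Dex+GW3965.

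Of 6 genes through which KRAB zinc finger proteins repress, 3 were lower with Dex and none higher (median difference -0.14), and the 3 also lay below vehicle. They were the heterochromatin gene Cbx1 (-0.46, SE 0.08, adjusted p = 0.00012), the corepressor gene Trim28 (-0.21, SE 0.05, adjusted p = 0.0025) and the histone methyltransferase gene Setdb1 (-0.20, SE 0.07, adjusted p = 0.03), whereas Zfp354a was highest with Dex. Trim28 and Setdb1 lay at a similar level with Dex (8.86 and 7.62) and with Dex+GW3965 (8.79 and 7.63). Cbx1 was lower with Dex (7.75) than with Dex+GW3965 (8.23). The call of Setdb1 was lost without vehicle b, Dex b, GW3965 a or Dex+GW3965 a (-0.19 to -0.14, adjusted p from 0.056 to 0.31). Of 5 relatives of Dipk1c and other kinases of the secretory pathway, 2 were higher with Dex, 1 was lower and 2 were not called (median difference 0.01). Dipk2a was lower (-1.96, SE 0.08, adjusted p = 6e-13), with means of 9.50 with vehicle, 6.83 with Dex, 9.39 with GW3965 and 7.48 with Dex+GW3965, so both groups with dexamethasone lay low. The proteoglycan kinase gene Fam20b (0.33, SE 0.08, adjusted p = 0.002) and Pkdcc, a secreted tyrosine kinase (0.26, SE 0.05, adjusted p = 0.00059), were higher, also than vehicle. The shares called were 50% of the 6 and 60% of the 5, against 38.4% of all probe sets.

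With GW3965, 3 of 16 aminopeptidases were higher than the mean of the other groups, 1 was lower and 12 were not called (median difference 0.09), so that 25% were called against 33.2% of all probe sets. The membrane enzyme Anpep was called higher (0.38, SE 0.04, adjusted p = 4.1e-07), with means of 10.22 for vehicle, 9.53 for Dex, 10.28 for GW3965 and 9.96 for Dex+GW3965. Enpep, specific for acidic residues like Dnpep, was called higher as well (0.27, SE 0.03, adjusted p = 7.2e-06). Its GW3965 mean, 10.13, lay below that of vehicle, 10.36, and above those of Dex, 9.45, and Dex+GW3965, 9.78. For both genes the groups with dexamethasone lay lowest. Metap1d, a mitochondrial methionine aminopeptidase, was lower (-0.30, SE 0.08, adjusted p = 0.0079), a call lost without either GW3965 array (adjusted p from 0.058 to 0.082). Of 4 nucleosome assembly proteins, 2 were lower with GW3965 and none higher (median difference -0.20), both also below vehicle and 50% of the list against 33.2% of all probe sets: Tspyl1, given above, and the histone chaperone gene Nap1l1 (-0.26, SE 0.05, adjusted p = 0.00031).

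Of 6 membrane partners of Mlc1, 2 were lower with GW3965 and none higher (median difference -0.07), a share of 33.3% called against 33.2% of all probe sets. Atp1b1, the beta subunit of the sodium pump, differed most (-1.34, SE 0.05, adjusted p = 1.7e-12). Its means were 9.34 with vehicle, 10.87 with Dex, 8.55 with GW3965 and 9.44 with Dex+GW3965, so that Dex was farthest from the rest and GW3965 lowest, while for Mlc1 both groups with dexamethasone were level. Gja1, the gap junction protein connexin 43, was also lower (-0.20, SE 0.05, adjusted p = 0.0039), a call lost without GW3965 array b (-0.18, adjusted p = 0.071). Of 9 lipocalins, 5 were lower with GW3965 than the mean of the other groups and none higher (median difference -0.16), and 4 of the 5 also lay below vehicle. The share called was 55.6%, against 33.2% of all probe sets. Beside Obp1f they included the acute phase protein Orm1 (-0.73, SE 0.03, adjusted p = 5.2e-13), the one that did not lie below vehicle, and the iron siderophore carrier Lcn2 (-0.37, SE 0.07, adjusted p = 0.00039). Orm1 lay at 14.34 and 14.32 in the groups with dexamethasone and at 13.14 and 13.20 in those without. Lcn2 was about as low with Dex (6.78) as with GW3965 (6.77), and read 7.10 with vehicle and 7.54 with Dex+GW3965. In the Dex+GW3965 group, part of the mean that GW3965 was set against, 7 of the 9 lipocalins were called higher, as were 2514 of all 16253 probe sets.

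Candidates were probe sets of other genes in which the same group lay at least 1 from the nearest other group mean. The other conditions of the measure above were not asked. Among them, the genes most like each of the 8 were found by Pearson correlation over the 8 arrays. The correlations share the choice of the group and are given as a description. Fam111a ran opposite to the forkhead factor gene Foxa2 (r = -0.997, group means 9.07, 7.53, 9.12 and 9.20 in the order vehicle, Dex, GW3965 and Dex+GW3965) and to Rup2 (r = -0.987). Zfp354a ran with the phosphatase gene Mtmr7 (r = 0.998) and with Herpud1, of the unfolded protein response (r = 0.998). Dipk1c ran opposite to the bile acid transporter gene Slc10a2 (r = -0.994) and to the fatty acid binding protein gene Fabp7 (r = -0.993). Gemin6 ran with Myc (r = 0.962) and opposite to Coq10b (r = -0.979).

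Opposite to the genes that were low with GW3965 ran, among others, genes of immediate early transcription factors. For Dnpep they were Fos (r = -0.991, means of 3.94, 3.95, 8.32 and 4.05 in the same order) and Fosb (r = -0.991), both above the floor with GW3965 alone. For Mlc1 they were Eci1, of fatty acid oxidation (r = -0.991), and Jun (r = -0.983), and for Tspyl4 they were Onecut1, a liver transcription factor (r = -0.99), and Jun on another probe set (r = -0.975). For Pbsn they were Pxmp4, a peroxisomal membrane protein (r = -0.974), and the class II gene RT1-Bb (r = -0.899).

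Markers of other cells moved between the groups as well. The summed signal of 7 leukocyte markers was 11.44 to 11.47 with vehicle, 10.71 with Dex, 10.34 to 10.35 with GW3965 and 10.90 to 10.96 with Dex+GW3965, lowest with GW3965. That sum is mostly Lyz2, at 11.06, 10.31, 9.69 and 10.59 in this order, and the list was not of one direction. By the fit with GW3965, Lyz2, S100a8 and S100a9 were lower, and Ptprc (0.57, adjusted p = 0.0021) and Csf1r (0.18, adjusted p = 0.02) were higher than the mean of the other groups. Against vehicle alone, Ptprc was slightly lower with GW3965 (6.40 against 6.53) and Csf1r slightly higher (7.83 against 7.75), and Ptprc was lowest with Dex (5.09). S100a8 and S100a9 were highest with vehicle (5.88 and 7.23). S100a8 lay under the floor with Dex (4.21), GW3965 (4.39) and Dex+GW3965 (4.54). The summed signal of 3 erythrocyte markers was highest with GW3965, at 14.11 to 14.19 against 13.09 to 13.60 elsewhere. It is mostly Hbb. Alas2 was also highest with GW3965, whereas Slc4a1 was highest with vehicle (6.93, against 5.97 with GW3965). Of 6 testis markers 5 were lower with Dex, as were 21.5% of all probe sets. The same 5 were lower with Dex+GW3965, as were 2500 of all 16253 probe sets. The sum of the 6 was 9.51 to 9.61 with vehicle, 7.58 to 7.69 with Dex, 9.96 with GW3965 and 7.81 to 7.91 with Dex+GW3965. This order was opposite to that of Tspyl4 for Dex and GW3965. Of 5 kidney markers 1 lay above the floor on some array. The part of these markers in the levels of the 8 genes was not tested.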

How the data were processed

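The authors deposited log2 signals for 31099 probe sets on 8 arrays made from 5 µg of total RNA. Per the methods, probes were first matched again to UniGene, those that did not map correctly were dropped, and signals came from perfect-match probes after background subtraction, while the submitters' processing notes name MAS5. No genome build is given in the sources used here. Values were used as deposited. Genes were named by the platform annotation, not by that match, and which probes lie behind a value is not given in the table. The 57 control probe sets were removed, which left 31042, and 16253 that exceeded the median of their own array on at least 2 arrays were kept. That annotation gives 20826 probe sets 1 symbol, 436 several and 9780 none.

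A model of 4 group means was fitted across the 8 arrays by lmFit of limma 3.58.1 (R 4.3.3), followed by eBayes allowing a trend with intensity, on 4 residual degrees of freedom. Each group was set against the mean of the other 3, with Benjamini-Hochberg adjustment over the 16253 and calls at 0.05. Since the arrays of a group may be 1 liver, p-values may measure technical spread only. On simulated data the fit was checked for recovery of known changes.

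The 8 genes and all lists were chosen with earlier results of these data known. Named were the 8 genes, up to 3 called genes of each list with the largest difference, read on the probe set with the highest mean, the neighbours within 5 genes with a kept probe set, and the 2 genes most like each. Lpl and the marker genes were named outside this rule. Alternatives were quantile normalization, no filter, a filter on the mean, no trend, a replicate block, each array left out, and a one-sample t-test as the methods name it, without their z cut-off. The number of arrays limits the precision.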

Additional observations from a re-analysis of the deposited data

Results flagged for a closer look

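For 3 genes every GW3965 array lay below every vehicle array while every Dex+GW3965 array lay above every Dex array. The difference between these effects (Dex+GW3965 minus Dex, less GW3965 minus vehicle) was 4.19 for Pbsn, 2.46 for Gemin6 and 2.31 for Dnpep on the log2 scale. The GW3965 mean of Pbsn lay under the floor, and with it set to the floor the value was 3.95. For Dnpep, Dex+GW3965 minus Dex was 0.15, close to its largest difference between arrays a and b, 0.13. The genes were picked on these signals, and the difference was not tested.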

How the results depend on the processing

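Distances of the 8 genes from the nearest other group kept their direction under quantile normalization, which moved them by at most 0.05. Leaving out any array moved them by at most 0.17. It could not turn a direction, because the arrays of the group apart overlapped no others. Tspyl4 stayed below 1 throughout (0.88 to 0.99).

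Main counts of called probe sets were 5896 for vehicle, 6239 for Dex, 5390 for GW3965 and 5014 for Dex+GW3965, each against the mean of the other groups. With each array left out they ranged from 4675 to 5637, from 4568 to 6390, from 3612 to 5455 and from 3303 to 5248, the lowest for Dex+GW3965 being that without its array b. With the letters a and b as a replicate block the counts were 5733, 6066, 5193 and 4776, and the deviations of same-lettered arrays correlated by -0.232 to 0.0831, so the letters were not taken to pair arrays. The methods' t-test, here 1 group's 2 values less the mean of the other groups and without the z cut-off that the methods add, has 1 degree of freedom and called 2681, 3459, 3217 and 2744 unadjusted and 16, 34, 17 and 26 after Benjamini-Hochberg adjustment.

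The alternatives were applied to 45 genes, the neighbours and the named list genes. List genes were named only where called, so the number called among the 45, 32, is no result about them. Of these 32, 29 had a value under all 13 alternatives other than the t-test, and 20 of the 29 kept the call in all 13. Mcm6, Fen1 and Mcm4 were removed by the filter on the mean. Calls were lost in at least 1 for Gemin4, Metap1d, Gja1, Setdb1, Mcm4, Glyat, Galm, Ptprn, Creld2 and Cyb5a, and Mpeg1 and Dtx4 gained one. No called gene changed sign under these 13, and 4 that were not called did (Dhx57, Dnajb2, Nt5dc1 and Frk). Unadjusted, the t-test did not call 19 of the 32.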
